A study of Mus musculus with 36 samples.

Results

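Cardiomyocytes of the injured mouse heart were followed here through 2 transcripts of cardiac stress, Sprr1a and Nmrk2. Single cells had been sorted into plates of 384 wells and sequenced by SORT-seq, a 3′ method that counts unique molecular identifiers (UMIs), so that each UMI stands for 1 captured transcript. A cardiomyocyte well was a well with at least 1000 UMIs, mitochondrial transcripts and spike-ins left out, in which Myh6, Actc1, Tnnt2, Tnni3, Tnnc1, Myl2, Myl3 and Mb together made up at least 5% of UMIs and 8 endothelial genes less than 0.6%. Of 3101 wells with at least 1000 UMIs, 963 met this rule, and 122 of those held at least 1 UMI of Sprr1a or Nmrk2. These 122 are called Sprr1a/Nmrk2 wells, and the 841 cardiomyocyte wells without a UMI of either gene are called the other wells.

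All animals were male C57BL/6 mice of 8 weeks, and no transgene was named. The 36 plates came from the infarcted region of the left ventricle after ischemia-reperfusion (IR), in which the left anterior descending artery was tied off for 1 hour, with 9 plates of day 1, 7 plates of day 3 and 3 plates of day 14, after myocardial infarction (MI), in which the ligation was permanent, at day 3 (5 plates), and after sham surgery at day 1 (4 plates) and day 14 (8 plates). Hearts were digested with Liberase and cells were sorted on scatter. Which plates came from the same mouse was not given in the sources used here, so p-values measure the spread between plates, which may in part be technical. The methods give fewer hearts for permanent ligation than there are MI plates, so some of these plates appear to share a mouse, and p-values over them may be too small. They give as few hearts for sham, at a day without sham plates here, so the same may hold for the comparisons with sham. The MI plates carry a protocol label of their own, so that ligation type and preparation cannot be told apart. Total UMIs ranged from 176614 to 5551870 per plate. In day 14 sham replicate 2, 77 wells repeated wells of replicate 7, and the plate was left out. It also shared 16 wells with IR day 3 replicate 6, of which 3 were Sprr1a/Nmrk2 wells. The pooled share of IR day 3 is therefore also given without replicate 6. So are the counts of called genes against the other wells of its plates, sham, MI and IR day 14. Other values of IR day 3 include replicate 6 unless stated.

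Sprr1a encodes a small proline-rich protein first known as a precursor of the cornified envelope of skin, and it is induced in cardiomyocytes under mechanical and ischemic stress. Nmrk2 encodes nicotinamide riboside kinase 2, a muscle enzyme that feeds nicotinamide riboside into NAD synthesis and that rises in failing hearts. Both belong to a response in which injured adult cardiomyocytes take up natriuretic peptides, beta myosin heavy chain and other transcripts of the fetal heart again, while transcripts of calcium cycling and oxidative metabolism fall.

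Sprr1a lies on chromosome 3 from 92483952 to 92485895 and Nmrk2 on chromosome 10 from 81198170 to 81202051, both on the minus strand of GRCm38. Their promoters, from 250 bases before to 50 bases after the start in RefSeq on GRCm38.p6, are shown because these 2 genes define the wells. The starts used for these windows are not the gene ends given above, and distances below refer to the starts of the windows. Sprr1a covers chr3:92485832-92486131 and Nmrk2 chr10:81201988-81202287, each 5′ to 3′ on the minus strand, with matches to the AP-1 motif TGANTCA in capitals.
Sprr1a: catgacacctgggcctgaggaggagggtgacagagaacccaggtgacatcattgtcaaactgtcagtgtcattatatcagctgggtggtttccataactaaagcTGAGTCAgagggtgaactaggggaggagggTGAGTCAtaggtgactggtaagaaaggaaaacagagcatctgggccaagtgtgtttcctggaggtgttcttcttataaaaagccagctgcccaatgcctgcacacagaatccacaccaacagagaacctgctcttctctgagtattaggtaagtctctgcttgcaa
Nmrk2: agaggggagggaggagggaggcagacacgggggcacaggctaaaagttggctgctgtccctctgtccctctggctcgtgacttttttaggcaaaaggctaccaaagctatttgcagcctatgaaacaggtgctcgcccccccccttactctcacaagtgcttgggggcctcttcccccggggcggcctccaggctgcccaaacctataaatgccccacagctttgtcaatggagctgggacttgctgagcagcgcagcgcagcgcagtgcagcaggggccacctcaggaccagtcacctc
Searched on both strands, the Sprr1a window held 2 AP-1 matches, 146 and 116 bases upstream of the start. Of 32851 mouse promoters of this length, 7.81% held at least 1 such match and 0.46% at least 2. Neither window held the MCAT element CATTCC, the STAT motif TTCNNNGAA or the motif AGATAA of cardiac zinc finger factors, which occurred in 14.7%, 8.3% and 11.2% of promoters, and the Nmrk2 window held no AP-1 match either. A match describes letters in the sequence, not a bound site.

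The share of cardiomyocyte wells with Sprr1a or Nmrk2 was higher after MI and at IR days 1 and 3 than at IR day 14 and in sham. It was 1.49% in day 1 sham (3 of 201 wells, exact binomial 95% interval 0.309% to 4.3%) and 1.5% in day 14 sham (3 of 200, 0.31% to 4.32%). At IR day 3 it was 42% (84 of 200, 35.1% to 49.2%), and at IR day 14 it was 4.44% (15 of 338, 2.51% to 7.21%). The wells were chosen by the UMIs of Sprr1a and Nmrk2 and of the genes of the rule, so these shares carry no test. The intervals cover counting error only.

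Few cardiomyocyte wells were recovered in the remaining groups. At IR day 1, 6 of 13 wells carried Nmrk2 (46.2%, 19.2% to 74.9%), and no plate of that group had 5 cardiomyocyte wells. After MI, all 11 wells carried it (100%, 71.5% to 100%). Whether fewer cardiomyocytes were sorted or fewer of them reached 1000 UMIs cannot be told apart from these counts.

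Within IR day 3, the 4 plates with at least 5 cardiomyocyte wells gave 45.3% (replicate 4, 53 of 117), 23.1% (replicate 5, 3 of 13), 46.7% (replicate 6, 7 of 15) and 42.9% (replicate 7, 21 of 49). Replicates 1 and 3 held 2 and 4 cardiomyocyte wells and none with either gene, and replicate 2 held no cardiomyocyte well. Without replicate 6 the pooled share was 41.6%. The 3 IR day 14 plates gave 5.75%, 1.41% and 4.3%, and the sham plates 0% to 5.0%, so that no sham or IR day 14 plate reached the lowest of these 4 plates.

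**Figure D1:**
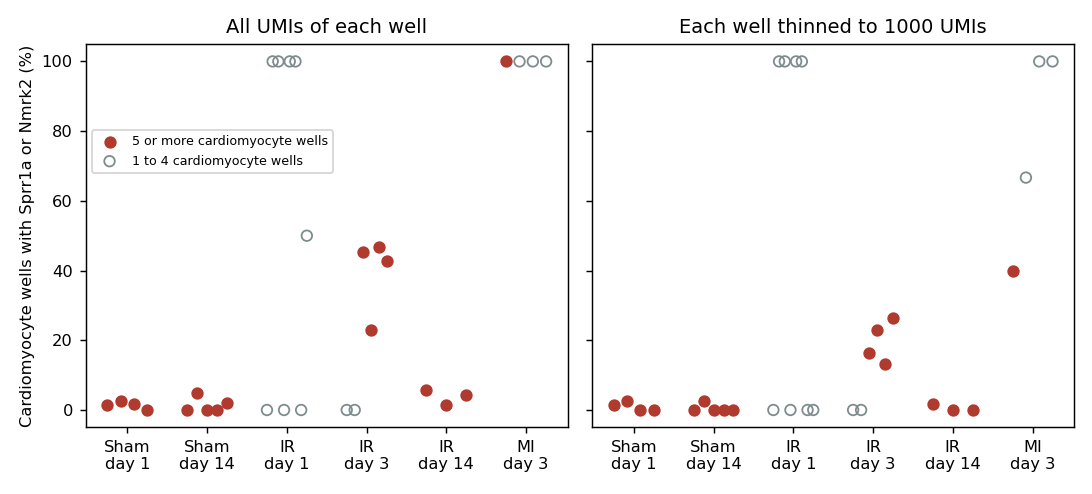
Share of cardiomyocyte wells with at least 1 UMI of Sprr1a or Nmrk2 (percent, vertical axis) in each plate, by group, from all UMIs (left) and after thinning every well to 1000 UMIs (right). Filled points are plates with 5 or more cardiomyocyte wells and open circles are plates with 1 to 4; the filled points of IR day 3 lie between 23.1% and 46.7% on the left, above all sham and IR day 14 plates.

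A deep well is more likely to hold 1 UMI of a given gene, and the share moved with depth. In IR day 3 it was 23.5% among wells of 1000 to 1500 UMIs (12 of 51) and 63.8% among wells over 5000 UMIs (37 of 58). When every well was thinned to 1000 UMIs, the share was 18.5% at IR day 3, 0.995% and 0.5% in day 1 and day 14 sham, 0.888% at IR day 14, 38.5% at IR day 1 and 63.6% after MI. Sprr1a/Nmrk2 wells of IR day 3 had a median of 3642 UMIs against 2080 in the other wells, and at IR day 14 the medians were 9384 and 2211. At equal depth IR day 3 still lay above sham and IR day 14, and IR day 14 lay within the values of the sham groups.

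The 2 genes did not mark the same wells at the same times. Of the 84 IR day 3 wells, 49 held Sprr1a alone, 17 Nmrk2 alone and 18 both, and 40 of the 84 were included on a single UMI. All 6 sham wells and all 6 IR day 1 wells held Nmrk2 without Sprr1a, as did 14 of the 15 IR day 14 wells. After MI, all 11 wells held Nmrk2 and 6 of them also held Sprr1a. In IR day 3, Nmrk2 was found in 18 of 67 wells with Sprr1a (26.9%) and in 17 of 133 without (12.8%), and at 1000 UMIs per well in 6 of 30 (20%) and 7 of 170 (4.12%). Among wells over 5000 UMIs the shares lay closer, at 11 of 27 (40.7%) and 10 of 31 (32.3%).

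Levels are given as CPM, the UMIs of a gene summed over the wells of a plate and expressed per 1000000 summed UMIs. In IR day 3 wells, Sprr1a stood at 601, 666, 199 and 632 CPM in replicates 4 to 7, with replicate 6 the lowest. Nmrk2 stood at 151, 222, 174 and 161 CPM in the same plates, a narrower range, where replicate 5 rested on 1 UMI. The highest single IR day 3 well, in replicate 4, held 157 of the 263 Sprr1a UMIs of its plate and so carried most of that plate's level, and the highest for Nmrk2 held 11. In the 4 MI plates with such wells, which held 5, 3, 1 and 2 of them, Nmrk2 stood at 575, 1252, 2188 and 1987 CPM, above each IR day 3 plate. Sprr1a stood at 1418, 213, 267 and 763 CPM, overlapping them. Summed over wells, Nmrk2 stood at 1672 CPM in the 6 IR day 1 wells and at 1439 CPM in the 11 MI wells. Both genes chose the wells, and 49 of the 84 IR day 3 wells held Sprr1a alone, so these levels depend on the rule.

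**Figure D2:**
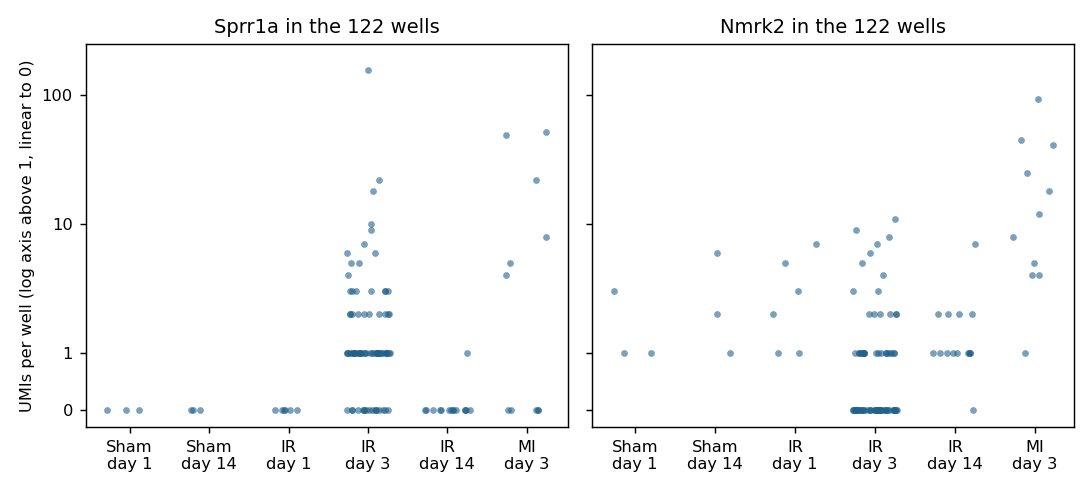
UMIs of Sprr1a (left) and Nmrk2 (right) in each of the 122 wells (points), by group; the vertical axis is logarithmic above 1 and linear down to 0. Sprr1a is at 0 in all sham and IR day 1 wells and reaches 157 UMIs at IR day 3, whereas Nmrk2 is present in every group.

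Sprr1a was also found outside cardiomyocytes. Among IR day 3 wells with less than 0.5% cardiomyocyte UMIs, 38 of 230 held Sprr1a (16.5%, median depth 6879 UMIs), against 67 of 200 cardiomyocyte wells (33.5%, median depth 2562 UMIs). At 1000 UMIs per well these shares were 2.61% and 15%, and those of Nmrk2 were 0.435% and 6.5%. Both genes thus stood above the level of the non-cardiomyocyte wells at equal depth. After MI, the thinned shares of Sprr1a were 2.39% of 670 such wells and 18.2% of the 11 cardiomyocyte wells, and those of Nmrk2 1.04% and 63.6%. Per 100 UMIs of the 8 cardiomyocyte genes, IR day 3 cardiomyocyte wells held 0.438 UMIs of Sprr1a and the non-cardiomyocyte wells 1.33, a ratio that was not the same in both. Of the latter, 35 of 171 wells led by macrophage markers held Sprr1a (20.5%) and 1 of 49 wells led by fibroblast markers (2.04%), at median depths of 8609 and 2390 UMIs. At 1000 UMIs per well the shares were 2.34% and 2.04%. Wells led by endothelial markers held it in 2 of 10 (20%, thinned 10%). After MI the order was the other way, with 52 of 311 fibroblast-led wells (16.7%, thinned 3.54%) and 42 of 305 macrophage-led wells (13.8%, thinned 1.31%), at median depths of 3759 and 20520 UMIs.

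The cardiomyocyte label was checked against its markers. Of 12 cardiomyocyte markers, 8 are the genes of the rule, which set their summed share, so that finding them is no check. The other 4, Ttn, Ryr2, Pln and Actn2, were found in 84, 74, 84 and 78 of the 84 IR day 3 wells. They were found in 9, 6, 11 and 10 of the 11 MI wells and in 4, 1, 4 and 2 of the 6 IR day 1 wells, where Ryr2 rested on 1 UMI. Summed over wells, Ttn stood at 382 CPM after MI and at 22310 CPM at IR day 3. The rule set a threshold on a continuum: over all groups, the nearest wells with either gene lay at 5.006% (inside) and 4.997% (outside) cardiomyocyte UMIs, with 25 such wells between 5% and 6% and 32 between 4% and 5%. In all, 206 IR day 3 wells held a UMI of Sprr1a or Nmrk2 and 121 of them lay under 5%, so that the 84 wells are those of high cardiomyocyte content.

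Transcripts of other cells were present at a low level. Fibroblast markers (7 of 7 detected) made up 0.187% of UMIs in the IR day 3 Sprr1a/Nmrk2 wells (0.111% to 0.248% over 4 plates), 0.329% in the other IR day 3 wells (0.0292% to 0.498% over 6 plates) and 0.0291% in the other wells of sham plates. Macrophage markers (8 of 9 listed) made up 0.0769% (0.0621% to 0.111%), 0.0972% (0.0108% to 0.199%) and 0.00423%. T or NK markers were at or near 0, with Cd3e and Nkg7 undetected in IR day 3 wells. Fibroblast and macrophage transcripts therefore moved with IR day 3 as a whole, and their part in the comparisons with sham was not tested beyond leaving out wells rich in them.

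The first comparison set the Sprr1a/Nmrk2 wells of IR day 3 against the other cardiomyocyte wells of the same plates. Across 1861 genes, summed per plate in replicates 4, 6 and 7, none differed at an adjusted p under 0.05 (0% called, edgeR quasi-likelihood test with the plate as a block, Benjamini-Hochberg adjustment). At an unadjusted p under 0.05 there were 55 genes, 32 higher and 23 lower, and DESeq2 also called 0 genes. Without replicate 6 the test called 1 gene. The precision limits what this shows: the 95% interval of the difference lay within 2-fold for 739 genes and within 4-fold for 1750, so that moderate differences were not detectable for many genes.

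Of the genes with an unadjusted p under 0.05, 5 are given with their values, chosen after these were seen. Fhl1, a LIM-domain protein that binds titin, stood at 167, 149 and 689 CPM in the Sprr1a/Nmrk2 wells and at 97.5, 107 and 160 CPM in the other wells of replicates 4, 6 and 7, a log2 difference of 1.23 ± 0.37 (SE, edgeR adjusted p = 0.596). Ankrd1, a titin-associated strain sensor, stood at 5078, 5440 and 4883 CPM against 3061, 5051 and 3296 CPM (0.50 ± 0.18, edgeR adjusted p = 0.934). Cryab, the small heat shock protein alpha-B-crystallin, stood at 5865, 4372 and 5929 CPM against 3213, 4299 and 4057 CPM (0.52 ± 0.19, edgeR adjusted p = 0.934). Each was higher in 3 of 3 plates, with little difference in replicate 6 for the latter 2. On the other side, Col1a1, the fibrillar collagen of fibroblasts, stood at 411, 348 and 230 CPM against 592, 484 and 974 CPM (-1.04 ± 0.32, edgeR adjusted p = 0.606), and Postn, a matrix protein of activated fibroblasts, at -1.15 ± 0.37 (edgeR adjusted p = 0.606). D830015G02Rik (-1.10 ± 0.32), Dmd, which encodes dystrophin (-1.01 ± 0.33), Rnf207 (-1.79 ± 0.61) and Rtn4, a protein that shapes the endoplasmic reticulum (0.91 ± 0.31), had smaller adjusted p-values than Ankrd1 and Cryab.

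By gene list, the fetal gene programme and wall stress had 18 genes tested, of which 0 passed the test and 14 lay above 0 (median log2 difference 0.29, against 0.02 over all genes tested). The matrix list had 10 genes, 0 past the test and 2 above 0 (median -0.48). Medians of the other lists with at least 5 genes tested lay between -0.25 (calcium handling, 15 genes) and 0.22 (heat shock and chaperones, 13 genes), with 0 genes past the test. Of the cornified envelope list only Tgm2, a transglutaminase, was tested (0.83 ± 0.36, edgeR adjusted p = 1), and of the NAD list only 2 genes of 20, with Nampt, the enzyme of NAD salvage, at 0.09 ± 0.39 (edgeR adjusted p = 1).

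When only wells with at least 2 UMIs of Sprr1a or Nmrk2 were counted, replicates 4 and 7 remained and 34 genes passed the threshold, 12 higher and 22 lower. The largest rises were of Serpinb1a, a serpin (4.40 ± 0.78), and Fam198b (2.37 ± 0.57). The other higher genes were Fhl1 (1.55 ± 0.33, edgeR adjusted p = 0.000514), Rtn4 (1.42 ± 0.28), Hspb1, a small heat shock protein (1.07 ± 0.28), Gpx3, a secreted glutathione peroxidase (0.99 ± 0.27), Clu, a secreted chaperone (0.98 ± 0.18), Ankrd1 (0.83 ± 0.18), Nppa, atrial natriuretic peptide (0.81 ± 0.22), Pdlim5, a Z-disc protein (0.79 ± 0.21), Cryab (0.76 ± 0.18) and Prkar1a, a regulatory subunit of protein kinase A (0.73 ± 0.21). The lower genes included collagens and other matrix genes (Col3a1 at -1.69 ± 0.24, Dcn, Col1a2, Postn, Fn1 and Col1a1) and the nuclear RNA Malat1 (-1.47 ± 0.18). Every gene of the 34 that was tested in both settings, which share their wells, had the same sign in both. The list is one alternative among several that called 0 to 34 genes, and it rests on 2 plates. Depth was not matched between the 2 kinds of well in it. With wells of at least 1 UMI matched on total UMIs, 0 of 862 genes tested passed. With each well thinned to 1000 UMIs, 0 of 467 passed.

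**Figure D3:**
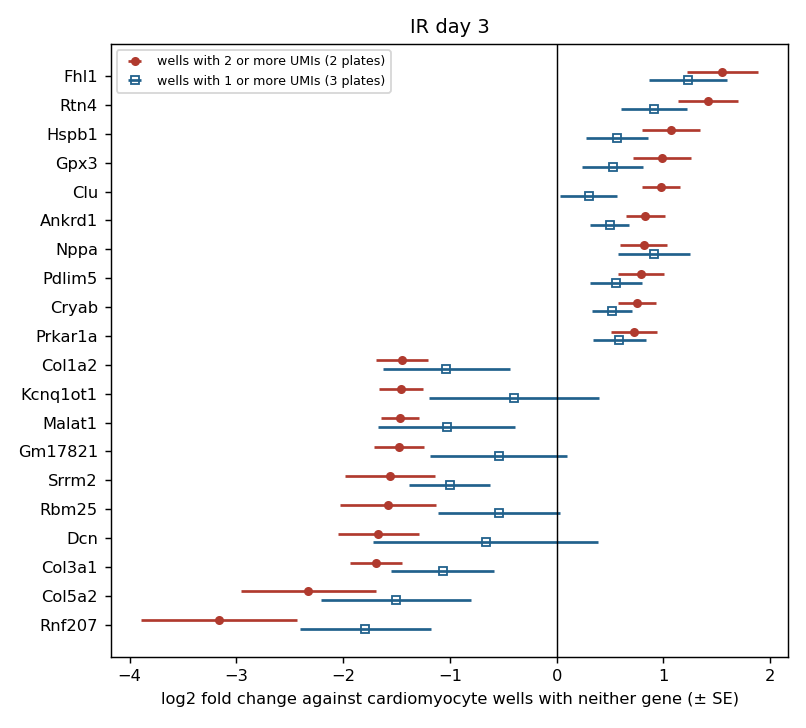
Log2 fold change (± SE, horizontal axis) of Sprr1a/Nmrk2 wells against the other cardiomyocyte wells of the same IR day 3 plates, for 10 of the higher and 10 of the lower genes called with wells of at least 2 UMIs (filled circles) and for the same genes with wells of at least 1 UMI (open squares). All 20 estimates have the same sign in both settings, and those from wells of at least 1 UMI were not past the threshold.

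Mitochondrial transcripts, which stood outside the rule, made up a median of 72.7% of all UMIs in the Sprr1a/Nmrk2 wells and 77.5% in the other wells (mean of plate medians). The difference was -4.71 ± 1.72 percentage points (SD, n = 3 plates), lower in 3 of 3 plates, with an exact two-sided sign-flip permutation p = 0.25, the smallest that 3 plates allow (0.5 after adjustment over 2 tests). Among wells of 2000 UMIs or more it was 1.5 points in the opposite direction over 2 plates. Genes detected at 1000 UMIs per well numbered 514 and 511, a difference of 2.67 ± 7.01 (SD, n = 3 plates, exact permutation p = 0.75).

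Both kinds of IR day 3 well were next set against the other wells of 9 sham plates, in comparisons added after the data were seen. The sham plates were of day 1 and day 14 and none of day 3, so injury and time after surgery cannot be told apart here. The 2 comparisons share their sham plates, so each is given by its own values. Of 2352 genes tested, 60 were higher (2.55%) and 19 lower (0.808%), 3.36% in all, in the Sprr1a/Nmrk2 wells than in sham. Of 2053 tested, 30 were higher (1.46%) and 11 lower (0.536%), 2% in all, in the other IR day 3 wells. Without IR day 3 replicate 4, replicate 6 or replicate 7, the first comparison called 43, 93 and 46 genes in all, and without replicates 4, 6 or 7 the second called 17, 32 and 23. Leaving out day 1 sham replicate 1, 2 or 4, the second called 69, 62 and 70. With day 1 sham alone, the first called 67 higher and 51 lower and the second 31 and 29, so that the excess of higher genes depended on which sham plates were used.

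Of the fetal programme and wall stress list, 7 of 18 genes tested were higher and 0 lower in the Sprr1a/Nmrk2 wells (median 0.71, against 0.0017 over all genes), where 2.55% of all genes were higher. In the other wells 3 of 17 were higher and 0 lower (median 0.50), where 1.46% of all genes were higher. The gene lists were chosen with earlier results of these data known, so their counts are a description. Myh7, the beta myosin heavy chain of the fetal heart, ranged from 0 to 454 CPM over the 9 sham plates (median 83.6) and stood at 697, 571 and 402 CPM in the Sprr1a/Nmrk2 wells of replicates 4, 6 and 7, a log2 fold change of 2.45 ± 0.40 (edgeR adjusted p = 0.000281). In the other wells it stood at 686, 288, 806 and 654 CPM in replicates 4 to 7 (2.61 ± 0.41, edgeR adjusted p = 0.000479). Myh7 thus passed the threshold in both kinds of well, with 1 sham plate inside their range. Ankrd1 ranged from 602 to 2339 CPM in sham (median 971), below all IR day 3 plates in both kinds of well, and rose by 1.94 ± 0.31 (edgeR adjusted p = 0.000271) and 1.45 ± 0.29 (edgeR adjusted p = 0.00878).

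Other members of the list passed the threshold in the Sprr1a/Nmrk2 wells. Clu rose by 1.43 ± 0.22 there and by 1.32 ± 0.20 in the other wells, from a sham median of 1434 CPM. Uck2, an enzyme of pyrimidine salvage, stood at 75.4, 124 and 103 CPM against 0 to 38.4 CPM in sham (2.01 ± 0.57, edgeR adjusted p = 0.0301). Nppb, B-type natriuretic peptide, rose by 1.74 ± 0.44 (edgeR adjusted p = 0.0478) and had a log2 fold change of 1.74 ± 0.53 in the other wells (edgeR adjusted p = 0.174). Cryab rose by 0.98 ± 0.22 and Pdlim5 by 0.95 ± 0.24, with 0.48 ± 0.19 and 0.35 ± 0.23 in the other wells, where neither passed. Fhl1, outside the list, rose by 2.46 ± 0.59 (edgeR adjusted p = 0.0356; 1.31 without IR day 3 replicate 7, where it did not pass) and was at 0.89 ± 0.44 in the other wells. Fhl1, Nppb and Uck2 also lost the call when 1 of several sham plates was left out, Uck2 without each of the 3 IR day 3 plates, Nppb without replicate 7, and Cryab and Pdlim5 without replicate 4 or 7. With day 1 sham alone Myh7, Uck2 and Fhl1 did not pass in the Sprr1a/Nmrk2 wells, nor Myh7 and Clu in the other wells, and with day 14 sham alone Nppb, Cryab, Pdlim5 and Fhl1 did not pass in the Sprr1a/Nmrk2 wells. The difference between the 2 kinds of well is the within-plate comparison above, in which none of these genes passed.

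Of the cytoskeleton list, 8 of 15 genes tested were higher and 0 lower in the Sprr1a/Nmrk2 wells (median 1.40), and 4 of 12 and 0 in the other wells (median 0.91), against the 2.55% and 1.46% of all genes that were higher. Tubb2a, a beta tubulin, rose by 2.37 ± 0.56, Tuba1b, an alpha tubulin, by 1.40 ± 0.29, Cfl1, the actin-severing protein cofilin, by 1.73 and Vim, the intermediate filament of mesenchymal cells, by 2.33 ± 0.37. Vim and Cfl1 also rose in the other wells, by 2.45 ± 0.38 and 2.08. Rtn4 rose by 2.45 ± 0.32 and by 1.73 ± 0.32, and Tfrc, the transferrin receptor of iron uptake, by 2.35 ± 0.35 and 2.17 ± 0.34. Tubb2a and Tuba1b did not pass without IR day 3 replicate 4.

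The largest rises against sham were of transcripts known from macrophages and fibroblasts. Spp1, Gpnmb and Lgals3, genes of injury macrophages, were at 3, 2 and 2 UMIs over all sham wells and at 158, 123 and 82 UMIs in the Sprr1a/Nmrk2 wells. Col1a1 rose by 4.08 ± 0.42 in the Sprr1a/Nmrk2 wells and by 4.92 ± 0.62 in the other wells, and Lyz1, a lysozyme, by 4.28 ± 0.32 and 4.77 ± 0.46. These genes moved with the marker sums given above, and Vim belongs to the same cells. Whether they came from the cardiomyocytes themselves was not tested.

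Of the 19 genes lower in the Sprr1a/Nmrk2 wells than in sham, 3 are given here. Ckm, muscle creatine kinase, fell by 1.16 ± 0.27, Hrc, a calcium-binding protein of the sarcoplasmic reticulum, by 1.05 ± 0.26 and Myom2, an M-band protein, by 0.98, all on the log2 scale. Myom2 did not pass with day 1 sham alone, nor Hrc with day 14 sham alone. Without IR day 3 replicate 7 none of the 3 passed, nor Hrc and Myom2 without replicate 4 or Myom2 without replicate 6. The metabolic lists had 0 of 40 genes called in oxidative phosphorylation, 0 of 28 in fatty acid oxidation and 1 of 20 in the TCA and creatine kinase list, which was Ckm. With 3.36% called over all genes, these counts are near the background and no result about the lists.

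**Figure D4:**
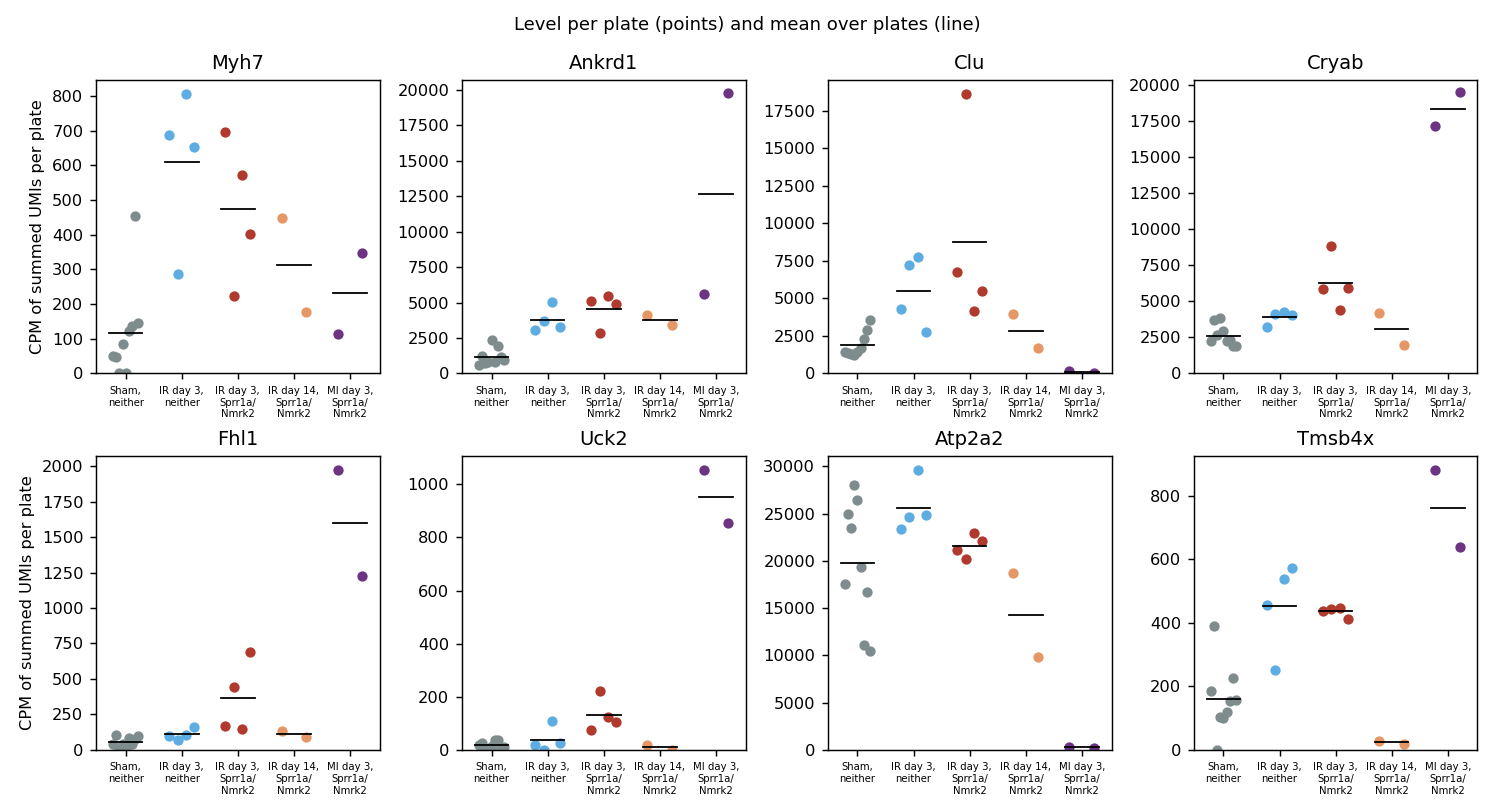
Level of 8 genes (CPM of UMIs summed per plate, linear axes from 0) in sham and IR day 3 wells with neither gene and in Sprr1a/Nmrk2 wells of IR day 3, IR day 14 and MI day 3. Points are plates with at least 5 wells (neither gene) or 3 wells (Sprr1a/Nmrk2), lines are means; Atp2a2 and Clu lie near 0 in the 2 MI plates, where Cryab, Fhl1 and Uck2 are highest.

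The Sprr1a/Nmrk2 wells of MI day 3 were then set against those of IR day 3, with 2 and 4 plates of at least 3 such wells. Of 1244 genes tested, genes of the rule left out, 248 were higher (19.9%) and 327 lower (26.3%), 46.2% in all, after MI. DESeq2 called 178 and 250. Without MI replicate 2 the counts were 128 and 202. That fit holds 1 MI plate, which is assumed to vary like the plates of the other groups, as in each fit below that leaves out an MI or IR day 14 plate. Without IR day 3 replicate 6 the counts were 232 and 323. At 1000 UMIs per well only 84 genes were tested, of which 26 were higher and 24 lower.

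Calcium cycling had the median farthest from 0 of the lists tested. Of 13 genes, 8 were lower and 1 higher, beside 26.3% and 19.9% of all genes (median -4.08, or -2.12 with a gene at 0 set to its bound, against 0.01 over all genes). Atp2a2, the calcium pump of the sarcoplasmic reticulum, stood at 21190, 20200, 22900 and 22050 CPM in the IR day 3 plates and at 287 and 240 CPM in the MI plates (-6.63 ± 0.58, edgeR adjusted p = 2.31e-13). Ryr2, the calcium release channel, stood at 2180, 1553, 2211 and 1724 CPM against 76.6 and 107 CPM (-4.77 ± 0.55, edgeR adjusted p = 8.5e-10). Neither range overlapped. Gja1, the gap junction protein connexin 43, was at 0 in both MI plates and at least 20.6-fold lower than in IR day 3, taking 3 UMIs over the MI wells as the limit of a count of 0. Bcam, Art1 and Cpe were at 0 as well, at least 14.2-fold, 11.2-fold and 10.7-fold lower.

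In the metabolic and sarcomere lists lower calls outnumbered higher calls, beside 26.3% lower and 19.9% higher over all genes. In fatty acid oxidation 10 of 21 genes were lower and 0 higher (median -1.23), among them Lpl, lipoprotein lipase (-6.02 ± 0.55), and Cd36, the fatty acid transporter (-3.60 ± 0.47). Acsl1, which activates fatty acids, was at -3.85 ± 0.76, but it rested on 3 UMIs in MI replicate 3 and 0 in replicate 2, and was at -2.75 without replicate 2 and -8.38 without replicate 3. In the TCA and creatine kinase list 11 of 20 were lower and 0 higher, and in oxidative phosphorylation 10 of 40 and 1, the former near the share over all genes and so no result about that list. The sarcomere list had 8 lower and 2 higher of 16. Ttn, the giant spring of the sarcomere, was at 22460, 3329, 16270 and 25350 CPM in IR day 3 and at 613 and 506 CPM in MI (-5.35 ± 1.27, edgeR adjusted p = 0.015), and Smpx, a small costamere protein, rose by 2.91 ± 0.37.

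In the protein synthesis list most genes passed the test upward, with 77 of 87 genes higher and 1 lower (median 2.01), beside 19.9% and 26.3% of all genes. Rps2, a protein of the small ribosomal subunit, stood at 4732 and 4183 CPM in the MI plates and at 331, 666, 348 and 310 CPM in IR day 3 (3.29 ± 0.36, edgeR adjusted p = 1.77e-10). Ribosomal protein transcripts made up 12.2% of UMIs in the MI wells and 1.89% in the IR day 3 wells. Pdlim7, a LIM protein of the Z-disc, rose by 4.02 ± 0.52, Ppp1r14b, an inhibitor of protein phosphatase 1, by 4.04 ± 0.70, and Kif3a, a kinesin motor subunit, by 3.61 ± 0.66. Rpl31 (3.88 ± 0.87) and 2200002D01Rik (3.65 ± 0.86) completed the 5 largest rises.

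The fetal list had 5 higher and 3 lower of 16, near the 46.2% called over all genes, so that the count is no result about that list. Uck2 rose by 2.91 ± 0.48 and Csrp3, a LIM protein of the Z-disc, by 1.47 ± 0.35, whereas Clu fell from 4173 to 18640 CPM in the IR day 3 plates to 134 and 53.3 CPM in the MI plates (-6.48 ± 0.59, edgeR adjusted p = 4.99e-13). Myh7 fell by 1.71 ± 0.51, but did not pass without MI replicate 2 or IR day 3 replicate 4, nor did Csrp3 without MI replicate 2. Ankrd1 passed the threshold (1.03 ± 0.41, edgeR adjusted p = 0.0407), but its 2 MI plates stood far apart, at 5575 and 19740 CPM, it did not pass without either of them (0.11 to 1.64 without single plates), and it was at -0.36 when only plates with 5 or more such wells were used, which left replicate 2 as the 1 MI plate. In the heat shock list 4 of 13 rose and 2 fell, again near the share over all genes and no result about the list. Hspb1 by 2.47 ± 0.36, Hspb7 by 2.00 ± 0.36 and Cryab by 1.33 ± 0.36 rose, Cryab not without either MI plate, and Hspa5, the chaperone of the endoplasmic reticulum, fell by 2.97 ± 0.48. Of the cytoskeleton list, 9 of 19 rose and 0 fell, beside 19.9% higher and 26.3% lower over all genes, so that the share called in either direction was near that of all genes. Named members were Tuba1b at 2.64 ± 0.37 and S100a10 at 2.73 ± 0.63. Dynll1, a dynein light chain, rose by 3.26 ± 0.56. It is 1 of the genes that the study followed, and its rise is no result about the others.

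**Figure D5:**
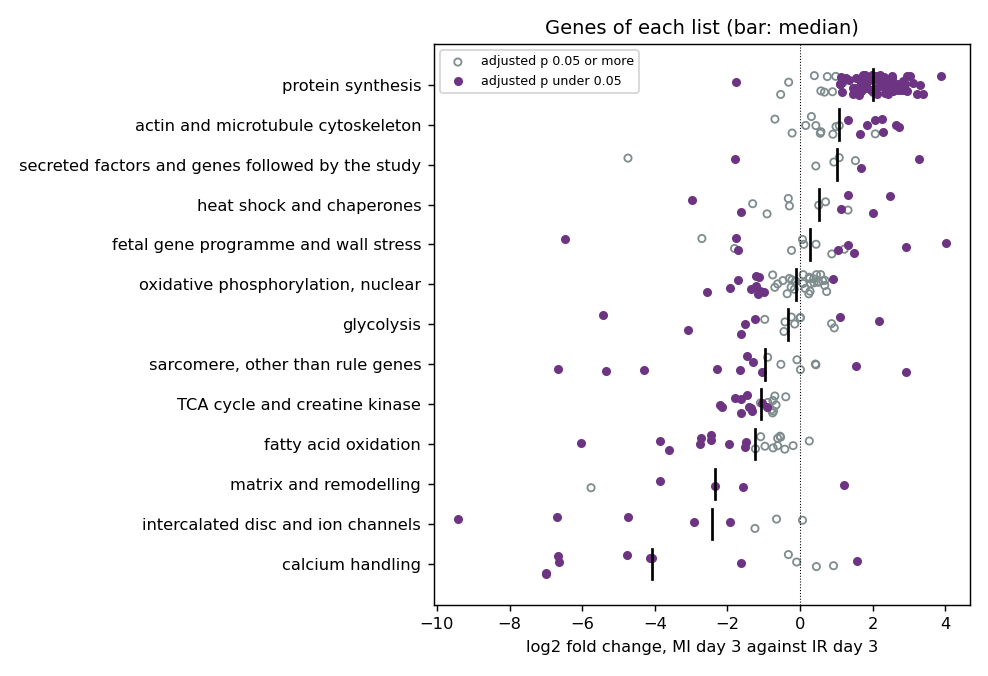
Log2 fold change of Sprr1a/Nmrk2 wells, MI day 3 against IR day 3 (horizontal axis), for each tested gene (points) of 13 gene lists, rule genes left out; filled points passed an adjusted p of 0.05 and bars are medians. The protein synthesis list lies mostly above 0 and the calcium handling list mostly below; far negative values belong to genes at or near 0 UMIs in the MI plates and are no measure of size.

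The MI wells differed from the IR day 3 wells in more than gene expression. Mitochondrial transcripts made up a median of 4.08% of UMIs in the MI wells (1.41% to 7.31%) and 72.8% in the IR day 3 wells (15.8% to 94.7%), and the median depth was 15670 against 3642 UMIs. The mitochondrial share, depth and the separate protocol of the MI plates move together with the ligation, and their part in these differences cannot be told apart from it. A low mitochondrial share also occurred in IR day 3. In 3 of the other wells of replicate 3 it was 9.48% to 28.45%, with Atp2a2 at 1217 CPM and Ankrd1 at 22140 CPM. In 2 Sprr1a/Nmrk2 wells it was 15.82% to 25.82%, with Atp2a2 at 10000 CPM and Ankrd1 at 1765 CPM. These sums held 4110 and 11899 UMIs and were not tested.

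At IR day 14, 14 of the 15 Sprr1a/Nmrk2 wells, 10 in replicate 1 and 4 in replicate 3, were compared with the other wells of these plates. Replicate 2 held 1 such well and did not enter. Of 1861 genes, 0 were higher and 1 lower (0.0537%): Vmn2r55, annotated as a vomeronasal receptor, at 582 and 749 CPM against 1371 and 3148 CPM (-1.66 ± 0.30, edgeR adjusted p = 0.00115). At an unadjusted p under 0.05 there were 97 genes. DESeq2 called 0, as did the fits with the plates of that day alone, with wells matched on UMIs and with thinned wells, and Vmn2r55 did not pass without replicate 3. One gene differed between the days in the effect of carrying Sprr1a or Nmrk2 (0.0537% of 1861): Dmd by 2.10 ± 0.46 (edgeR adjusted p = 0.0429). It was at -1.01 ± 0.33 within IR day 3, where the wells stood at 192, 124 and 161 CPM against 318, 161 and 480 CPM, and at 1.09 ± 0.32 within IR day 14, where they stood at 305 and 998 CPM against 179 and 383 CPM. Dmd did not pass without IR day 3 replicate 4, 6 or 7 or IR day 14 replicate 3, without a filter on low counts, with DESeq2 or with wells matched on UMIs, and no gene passed with thinned wells, so that the call rests on the plates and settings used.

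Between the days, among Sprr1a/Nmrk2 wells only and with the same IR day 3 plates as in the comparison with MI, 7 of 1244 genes were higher at day 14 (0.563%) and 14 lower (1.13%), 1.69% in all. Lyz1, Spp1, Ctss and Gpnmb were at 0 at day 14 and at least 39.2-fold, 14.9-fold, 13.7-fold and 11.6-fold lower, Tmsb4x, an actin-binding peptide, fell from between 414 and 447 CPM in 4 plates to 28.6 and 17.8 CPM in 2 plates (-3.97 ± 0.67, edgeR adjusted p = 6.38e-05), and Vim fell by 3.30 ± 0.73. The other 8 lower genes were C1qb, Apoe, Cfl1, Col1a2, Ftl1, Actb, Col3a1 and Rpsa, at -4.04 to -1.63. The summed markers of other cells moved with them: macrophage markers made up 0.0769% of UMIs in the IR day 3 wells and 0.00235% in the IR day 14 wells (0% to 0.00357% over 3 plates), with Cd68, Lyz2, C1qa, Ccr2 and Spp1 at 0, and fibroblast markers (7 of 7 detected) 0.187% and 0.0599% (0.0105% to 0.0821%). Their part in these differences was not tested. Gapdh, the glycolytic enzyme, was higher at day 14 (2052 and 1177 CPM against 516, 666, 497 and 115 CPM, 2.22 ± 0.39), as were Ckm (1.37 ± 0.35) and Dmd (2.16 ± 0.48). Gapdh was at 1.87 to 2.57 without single plates. Dmd was at 0.83 and did not pass without IR day 14 replicate 3 (2.89 without replicate 1), and Ckm, at 0.92 to 1.82, did not pass without either day 14 plate, IR day 3 replicate 7 or either MI plate of the shared fit. Vim did not pass without either day 14 plate or IR day 3 replicate 4, nor Gpnmb and C1qb without IR day 14 replicate 1. Ankrd1 stood at -0.07 ± 0.43 between the days. The number of calls rested on single plates: it was 45 without IR day 14 replicate 1, 10 without replicate 3 and 35 without IR day 3 replicate 6. The balance turned as well, with 38 higher and 7 lower without IR day 14 replicate 1, against 1 and 9 without replicate 3 and 13 and 22 without IR day 3 replicate 6.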

How the data were processed

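SORT-seq libraries of 36 plates of 384 wells were used. The authors aligned reads with BWA to the mouse genome (GRCm38/mm10) and deposited, for each plate, whole-number UMI counts per gene and well, which carry no normalization and cannot exceed 4096 with this UMI. Transcripts ending in __chrM and ERCC spike-ins were left out of all sums, and all 20848 gene entries carried a name. Wells were chosen by the thresholds given above, with less than 0.6% of UMIs from endothelial genes, and no doublet caller was run because each well had been filled by a single-cell sort. The wells and the gene lists were chosen with earlier results of these data known.

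UMIs were summed per plate and class of well, and plates entered with at least 5 wells of both classes (within IR day 3), 3 wells of both (within IR day 14, where fewer than 2 plates reached 5), 3 wells (comparisons among Sprr1a/Nmrk2 wells) or 5 wells (comparisons with sham). edgeR 4.0.16 in R 4.3.3 was used with filterByExpr, TMM and the robust quasi-likelihood test, with the plate as a block within plates, and calls were made at a Benjamini-Hochberg adjusted p under 0.05, adjusted over every gene tested. Both days were fitted together, with 3 plates of IR day 3 and 2 of IR day 14. The 18 genes that the rule used were left out of lists and of named genes. Named genes were the 12 (day 3) or 5 (other comparisons) with the largest changes in each direction past the threshold, and 2 to 6 examples of each fixed list. Where an alternative or an added comparison made the calls, the genes named were chosen after their values were seen. One gene that met this rule is not reported here. A count of 0 was taken to allow 3 UMIs. The fits were tested on simulated counts. Alternatives were DESeq2 1.42.0, other size factors, filters, depths, thresholds and blocks, and leaving out each plate. Within a plate, the Sprr1a/Nmrk2 and other wells were paired by the plate itself. Python 3.11.15 was used for all other steps.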

Additional observations from a re-analysis of the deposited data

Results flagged for a closer look

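Values of single plates stood apart in 10 of 104 groups of 4 to 10 plates examined, where chance alone gives about 1 in 20. Among the other wells of sham plates, Myh7 reached 454.3 CPM in 1 day 1 plate (next 145.7), Tuba1b 170.0 CPM (next 97.14) and Vim 84.3 CPM (next 32.9). In day 14 sham, 1 plate reached 110.1 CPM of Tubb2a (next 20.19) and 1 plate 94.2 CPM of S100a11 (next 23.32).

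Spp1 was found in 1 plate of each sham day (3.886 CPM at day 14 and 9.367 CPM at day 1), as was Gpnmb (6.729 and 9.714 CPM), and Postn in 1 day 14 plate (7.773 CPM), with 0 in the other plates of that day. These sham values rest on few UMIs.

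The effect of carrying Sprr1a or Nmrk2 on Dmd differed between IR day 14 and IR day 3 by 2.10 on the log2 scale (edgeR interaction, adjusted p = 0.0429). It did not pass when IR day 3 replicate 4, 6 or 7 or IR day 14 replicate 3 was left out, without a filter on low counts, with DESeq2 or with wells matched on UMIs. Sprr1a was found in wells with less than 0.5% cardiomyocyte UMIs, in 16.52% of 230 wells at IR day 3 and 15.07% of 670 wells after MI, against 1.449% of 69 wells in day 14 sham and 0 of 75 wells in day 1 sham. These wells differed in depth, with medians of 6879 and 15360 UMIs against 2680 and 4424 UMIs, and at 1000 UMIs per well the shares were 2.61% and 2.39% against 0% in both sham groups.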

How the results depend on the processing

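Within IR day 3, the count of called genes was 2 with plates of 3 or more wells of both classes, 26 with wells chosen by Sprr1a alone, 34 with at least 2 UMIs and 11 with wells of 2000 UMIs or more, and 1 to 5 without single plates. Within IR day 14, where 1 gene was called, it was 10 with plates of 3 wells, 5 without Rn45s, 11 with wells chosen by Nmrk2, 11 without a filter, 14 with wells of 2000 UMIs or more, 6 without wells rich in markers of other cells, 0 with DESeq2, 0 with the plates of that day alone, 0 with wells matched on UMIs, 0 of 467 tested with thinned wells, and 1 to 10 without single plates. The difference between the days, 1 gene, was 0 with DESeq2, 0 with matched wells, 0 with thinned wells, and 0 to 4 without single plates.

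Between IR day 14 and IR day 3, 21 calls became 12 with at least 2 UMIs, 11 without a filter, 1 of 84 tested with thinned wells, and 10 to 45 without single plates. Between MI and IR day 3, 575 calls became 921 with plates of 2 wells, 299 without a filter, 50 of 84 tested with thinned wells, and 330 to 756 without single plates. Ankrd1 turned to -0.36 with plates of 5 wells, which left 1 MI plate. Against sham, 79 calls of the Sprr1a/Nmrk2 wells became 52 with day 14 sham alone, 118 with day 1 sham alone, 119 with at least 2 UMIs, 148 without a filter, 32 of 620 tested with thinned wells, and 43 to 95 without single plates. The 41 calls of the other wells became 22 with day 14 sham alone, 60 with day 1 sham alone, 150 without a filter, 11 with wells of 2000 UMIs or more, 23 of 540 tested with thinned wells, 25 without wells rich in other markers, and 17 to 70 without single plates: 17 without IR day 3 replicate 4, 23 without replicate 7, and 69, 62 and 70 without day 1 sham replicates 1, 2 and 4.

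The plate paired the wells within each plate. With no replicate block, 0 genes were called at IR day 3 and 0 at IR day 14. With the replicate number as a block, calls against sham were 31 and 21, and the comparisons among Sprr1a/Nmrk2 wells could not be fitted. In these plates a number is only a name, and no pairing across groups is given. The mitochondrial difference turned to 1.495 points with wells of 2000 UMIs or more (-5.412 to -3.754 without single plates), and the difference in genes detected turned to -1.25 without replicate 7 (-1.25 to 5.5).

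Shares with at least 10% cardiomyocyte UMIs were 0% in day 1 sham (0 of 16 wells), 0% at IR day 1 (0 of 1), 30% at IR day 3 (9 of 30), 4.05% in day 14 sham (3 of 74) and 3.96% at IR day 14 (4 of 101). With at least 2 UMIs they were 22% at IR day 3 and 1.48% at IR day 14, and thinned 18.5%, 0.888% and 63.6% (IR day 3, IR day 14, MI). Without single plates they ranged from 37.35% to 43.32% at IR day 3, 3.05% to 5.24% at IR day 14, 1.25% to 1.695% in day 1 sham and 0.625% to 2.632% in day 14 sham, and stayed at 100% after MI. Plates of 10% cardiomyocyte UMIs could not be fitted for genes. DESeq2 for the difference between days, matched wells and all comparisons with sham were added after seeing the data. The cause of these changes was not tested.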

Other observations

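The 6 Sprr1a/Nmrk2 wells of IR day 1 came from 5 plates and held 11365 UMIs in all, so their levels are a description without a test, in which 3 UMIs correspond to 264 CPM. Atp2a2 stood at 1320 CPM and Lpl at 2024 CPM when the wells were summed, and Gja1 at 0. Cryab stood at 18920 CPM, Hspb1 at 9943 CPM, Hspb7 at 5895 CPM, Csrp3 at 8183 CPM, Fhl1 at 2992 CPM and Uck2 at 1408 CPM. Ribosomal protein transcripts made up 7.8% of UMIs. Clu stood at 528 CPM. The median mitochondrial share was 58.2%. These plates carry the same protocol label as the other IR plates.

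In the 3 Sprr1a/Nmrk2 wells of IR day 3 replicate 5, Nppa, atrial natriuretic peptide, stood at 44160 CPM and Acta1, skeletal alpha-actin of the fetal programme, at 3551 CPM. In the remaining 3 plates Nppa ranged from 2186 to 4228 CPM and Acta1 from 124 to 655 CPM. Zeb2, the transcription factor at the centre of the study, stood at 24.6 CPM in the summed IR day 3 Sprr1a/Nmrk2 wells, 26.8 CPM in the other wells, 22.5 CPM in the MI wells and 11.1 CPM in the other wells of sham, and was too low for the tests.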
